A study of Mus musculus with 8 samples.

Results

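Expression of 10 genes of the myocardin, SRF and MEF2 program was examined in the fetal heart: *Srf*, its coactivators *Myocd*, *Mkl1* and *Mkl2*, the MEF2 factors *Mef2a*, *Mef2c* and *Mef2d*, and the smooth muscle genes *Acta2*, *Tagln* and *Cnn1*. They were taken by symbol, and all 10 were found among the 26590 gene symbols of the deposited table, on 31 of its 51414 transcript rows. Each gene is described by the row with the highest average of both genotypes, and its other rows are given beside it. Hearts of 4 *Dio3*+/+ fetuses were compared with hearts of 4 *Dio3*-/- fetuses, which lack functional type 3 deiodinase, the enzyme that inactivates thyroid hormones, in all tissues throughout development. Both groups were C57BL/6J, each RNA came from 1 fetus, and total RNA was sequenced after removal of ribosomal RNA. The table gives the authors' mean and coefficient of variation (CV, the SD divided by the mean) for each genotype and no value for single hearts, so hearts are summarized by their genotype throughout and the depth behind each value is unknown from the table.

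Some labels of the hearts disagree. Every sample title gives the embryonic age as E13.5, and the age field gives E18.5 for *Dio3*-/- hearts 3 and 4. The study's Methods describe the sequenced hearts as E14.5. The fetuses are described as male, and *Xist*, which is transcribed from the inactive X chromosome in female cells, had a mean of 35.64 RPKM (CV 0.99) in *Dio3*+/+ hearts and 39.97 RPKM (CV 0.55) in *Dio3*-/- hearts. The targeted gene, *Dio3*, had low means of 0.35 RPKM (CV 1.23) and 0.13 RPKM (CV 0.76), and the genotypes were not checked from them. The paper describes mice with a full deletion of this gene as a separate line. RPKM, a read density scaled to transcript length and to the mapped reads of the library, is the unit read from the Methods, since the table names none, and it allows levels of different genes to be compared per length. Values without the hearts in doubt could not be calculated from genotype summaries.

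SRF is a transcription factor of the MADS box family that binds a short DNA element, the CArG box, near genes for actins and other contractile and cytoskeletal proteins. Myocardin, made in cardiac and smooth muscle, and the related proteins MKL1 and MKL2 (also named MRTFA and MRTFB) bind SRF and raise the transcription of its targets. MKL1 and MKL2 are held in the cytoplasm by actin monomers and enter the nucleus when these are used up. The MEF2 factors form the other MADS box family of muscle and bind AT-rich elements near sarcomere and metabolic genes. Smooth muscle α-actin, transgelin and calponin 1 are classic SRF targets of smooth muscle, and the early embryonic heart also makes them in its cardiomyocytes.

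The promoters of the members were searched on both strands for the CArG box, which SRF binds, and for the MEF2 site. RefSeq promoters (build GRCm38.p6, 250 bases before to 50 after the annotated start) were found for 8 of the 10 genes, 13 promoters in all, with *Mkl1* and *Mkl2* under their newer symbols. *Myocd* and *Tagln* had no entry. The build of the deposited table is not given in the sources used here, and positions are counted from the RefSeq start. Stretches from *Srf* (chr17:46556203-46556262, minus strand, bases -100 to -41) and *Acta2* (chr19:34255394-34255473, minus strand, bases -100 to -21) are shown 5′ to 3′ because they hold the CArG elements of the regulator and of the member with the highest level. Capitals mark the elements.
Srf: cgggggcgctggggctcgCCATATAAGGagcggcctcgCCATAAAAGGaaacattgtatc
Acta2: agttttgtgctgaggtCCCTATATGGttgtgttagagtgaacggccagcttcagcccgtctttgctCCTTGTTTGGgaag

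*Srf* holds a pair of full CArG boxes that begin at bases -82 and -62. Both elements of *Acta2*, at -84 and -34, have 1 C or G in the center in place of A or T. A full CArG box was found in 1.63% of the 32851 promoters of the RefSeq table and the form with 1 C or G in 8.50%. One promoter of *Mkl1* and that of *Mef2a* also hold the latter form. The MEF2 site, found in 3.19% of all promoters, was present in 1 promoter of *Mkl2* and, across the start, in that of *Mef2a*. The windows of *Cnn1*, *Mef2c* and *Mef2d* had no match, which says only that these letters are not in these windows.

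The genotypes did not differ past the threshold, an adjusted *P* value of 0.05, in any of the 10 genes or of their 31 rows. Differences were tested on the log2(RPKM + 0.5) scale from the genotype means and CVs by limma, with Benjamini-Hochberg adjustment over the 32703 rows whose larger genotype mean exceeded 1 RPKM. All 10 genes and all 31 rows passed that filter. An adjusted *P* value under 0.05 by limma was reached by 2.29% of all 14657 tested genes in their highest row (1.91% higher and 0.382% lower in *Dio3*-/- hearts). On at least 1 row, 2.59% of the genes reached it. At an unadjusted *P* value of 0.05 by limma, 4 of the 10 passed (*Myocd*, *Acta2*, *Mef2a* and *Mkl2*, all with higher means in *Dio3*-/- hearts), against 19.7% of all tested genes in either direction and 15.2% in that direction. The 4 became 2 when both genotypes were centered on the median log2 ratio, 3 with Welch's test and 5 without rows with a CV above 0.5. Welch's test on the same summaries, with the same adjustment, also gave 0 members. The log2 fold change was above 0 for 7 members and below 0 for 3, and 63.3% of all tested genes were above 0. The median over the 10 was 0.10, and over all tested genes it was 0.04. The limma *P* values set the difference of the genotype means against the spread between fetuses, moderated by that of the other rows.

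**Figure D1:**
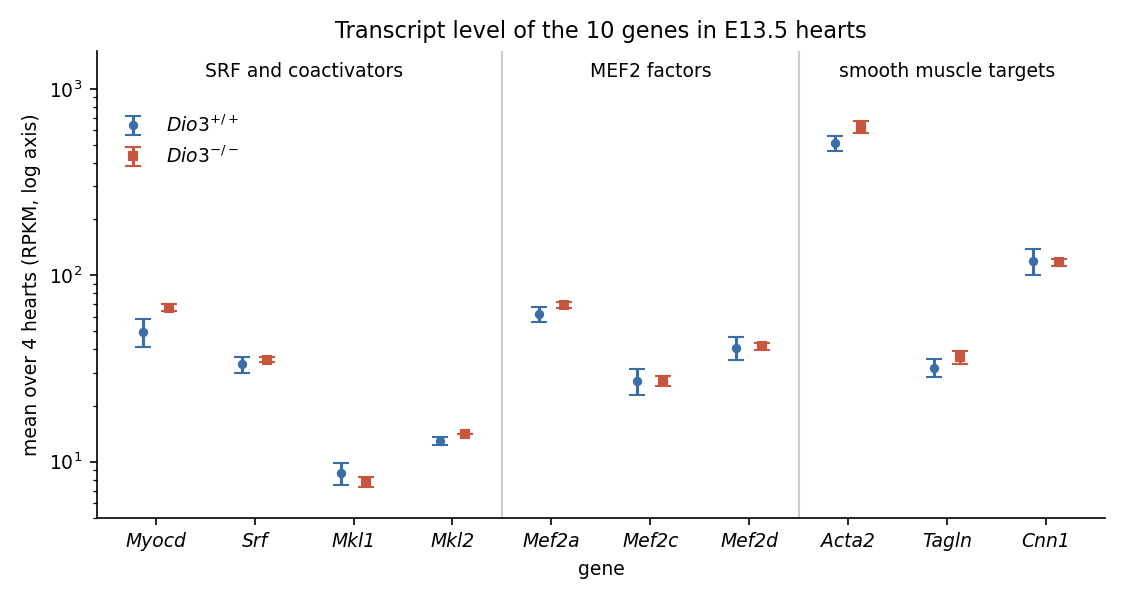
Mean level of the 10 genes (RPKM on a log axis) in 4 *Dio3*+/+ and 4 *Dio3*-/- hearts, with bars of 1 SD calculated from the authors' mean and coefficient of variation. *Acta2* is highest and *Mkl1* lowest in both genotypes, and the bars of the genotypes are apart for *Myocd*, *Mkl2* and *Acta2*.

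*Myocd*, which encodes myocardin, had the largest log2 fold change of the 10 genes. Its mean was 49.90 RPKM (CV 0.17) in *Dio3*+/+ and 67.05 RPKM (CV 0.04) in *Dio3*-/- hearts, a ratio of 1.34. The log2 fold change was 0.42 ± 0.11 (SE, 4 hearts per genotype), with a 95% interval from 0.19 to 0.66 and an adjusted *P* value of 0.070 by limma. Its 3 transcript rows had log2 fold changes from 0.42 to 0.43 and adjusted *P* values from 0.060 to 0.070 by limma. Rows of a gene can share exons and therefore reads, so they are not separate measurements. The ranges of 1 SD around the genotype means were apart for *Myocd*, *Acta2* and *Mkl2*, 3 of 10 genes, and they were apart for 15.5% of all tested genes. The adjusted *P* value of *Myocd* was 0.04999 when rows with a CV above 0.5 were left out of the limma fit, and it ranged from 0.055 to 0.231 in the other alternatives.

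*Srf*, the DNA-binding partner of the coactivators, had 1 row with means of 33.33 RPKM (CV 0.10) in *Dio3*+/+ and 35.21 RPKM (CV 0.03) in *Dio3*-/- hearts. Its difference of 0.08 ± 0.07 on the log2 scale (adjusted *P* = 0.598 by limma) had a 95% interval from -0.08 to 0.23. The level of *Myocd* was 1.50 times that of *Srf* in *Dio3*+/+ and 1.90 times in *Dio3*-/- hearts.

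Both MRTF genes had lower levels than *Srf* and *Myocd*. *Mkl1* had 8.67 RPKM (CV 0.14) in *Dio3*+/+ and 7.77 RPKM (CV 0.06) in *Dio3*-/- hearts, the lowest log2 fold change of the 10 genes at -0.15 ± 0.09 (95% interval, -0.36 to 0.06, adjusted *P* = 0.435 by limma). *Mkl2* had 12.96 RPKM (CV 0.05) and 14.13 RPKM, with a CV listed at 0 in *Dio3*-/- hearts, and a log2 fold change of 0.12 ± 0.05 (95% interval, 0.01 to 0.23, adjusted *P* = 0.214 by limma). CVs are given to 2 decimals, so that 0 stands for a value under 0.005. Whether *Mkl1* and *Mkl2* differ from each other in their change was not tested. The 3 *Mkl1* rows all had lower means in *Dio3*-/- hearts. Of the 3 *Mkl2* rows, 1 was far lower than the others (1.72 and 1.51 RPKM) and differed by -0.14 on the log2 scale (adjusted *P* = 0.623 by limma). By these means, *Myocd* made up 69.8% of the summed level of the 3 coactivators in *Dio3*+/+ and 75.4% in *Dio3*-/- hearts. *Mkl2* made up 18.1% and 15.9%, and *Mkl1* 12.1% and 8.74%.

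Among the MEF2 factors, *Mef2a* had the highest level and *Mef2c* the lowest of the 3 members in both genotypes. *Mef2a* had 61.62 RPKM (CV 0.09) in *Dio3*+/+ and 69.44 RPKM (CV 0.04) in *Dio3*-/- hearts, so that its log2 fold change was 0.17 ± 0.07 (95% interval, 0.02 to 0.32, adjusted *P* = 0.203 by limma). All 7 of its rows had log2 fold changes between 0.13 and 0.17. *Mef2c*, a factor needed for looping of the heart and formation of the right ventricle, had 27.23 RPKM (CV 0.16) and 27.11 RPKM (CV 0.06). Its log2 fold change of -0.01 ± 0.10 had a 95% interval from -0.24 to 0.22 (adjusted *P* = 0.984 by limma). Of its 6 rows, 5 had means from 26.01 to 27.23 RPKM in *Dio3*+/+ hearts and 1 had 15.24 RPKM, with a log2 fold change of 0.07 in the latter (adjusted *P* = 0.733 by limma). *Mef2d* had 40.87 RPKM (CV 0.14) and 41.55 RPKM (CV 0.04), a log2 fold change of 0.02 ± 0.09 (95% interval, -0.18 to 0.22, adjusted *P* = 0.920 by limma) that became -0.01 when both genotypes were centered on the median log2 ratio. Its 4 rows lay between 0.02 and 0.03. The intervals of *Mef2c* and *Mef2d*, from 4 hearts per genotype, extend to both sides of 0, so changes within them in either direction are not excluded. The remaining family member, *Mef2b*, had 0.09 and 0.06 RPKM, too low to be tested. *Mef2a*, *Mef2d* and *Mef2c* made up 47.5%, 31.5% and 21.0% of the summed family in *Dio3*+/+ hearts and 50.3%, 30.1% and 19.6% in *Dio3*-/- hearts.

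**Figure D2:**
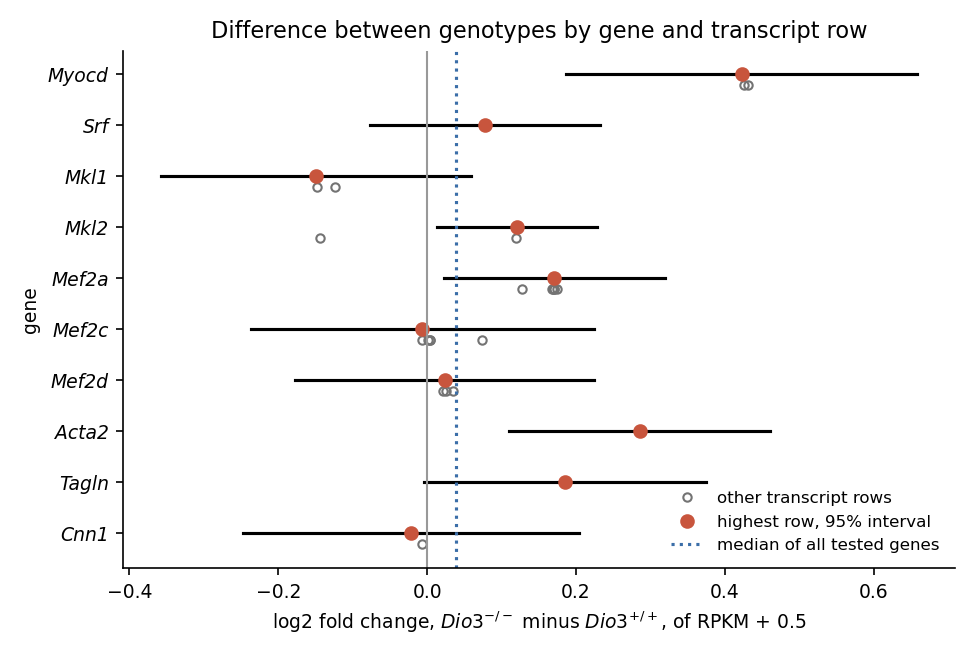
Log2 fold change of RPKM + 0.5 (*Dio3*-/- minus *Dio3*+/+) for each of the 10 genes. Points with bars are the highest rows with 95% intervals, and the other transcript rows and the median of all tested genes (0.04) are drawn for comparison. The intervals of *Myocd*, *Acta2*, *Mef2a* and *Mkl2* lie above 0 before adjustment for multiple testing.

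*Acta2*, which encodes smooth muscle α-actin, had the highest level of the 10 genes, above 99.1% of all tested genes. Its single row had 512.90 RPKM (CV 0.09) in *Dio3*+/+ and 625.44 RPKM (CV 0.07) in *Dio3*-/- hearts, so that its log2 fold change was 0.29 ± 0.08 (95% interval, 0.11 to 0.46, adjusted *P* = 0.088 by limma). *Tagln*, which encodes the actin-binding protein transgelin (SM22), had 31.85 RPKM (CV 0.11) and 36.29 RPKM (CV 0.08), a log2 fold change of 0.19 ± 0.08 (95% interval, -0.0044 to 0.38, adjusted *P* = 0.278 by limma). *Cnn1*, which encodes calponin 1, an inhibitor of actomyosin, had 118.91 RPKM (CV 0.16) and 117.15 RPKM (CV 0.04). Its log2 fold change was -0.02 ± 0.10 (95% interval, -0.25 to 0.20, adjusted *P* = 0.936 by limma), and that of its other row was -0.01. The 3 targets were far apart in level, with *Acta2* at 16.1 times the level of *Tagln* in *Dio3*+/+ hearts and 17.2 times in *Dio3*-/- hearts. *Cnn1* was at 3.73 and 3.23 times the level of *Tagln*.

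*Acta2* has near-identical paralogs, and uniquely mapping reads can be split unevenly between such genes, so the level of each actin is uncertain. With this limit, cardiac α-actin (*Actc1*) made up 63.0% of the summed level of 6 actin genes in *Dio3*+/+ and 66.4% in *Dio3*-/- hearts. *Acta2* made up 6.77% and 7.37%, more than skeletal α-actin (*Acta1*, 1.50% and 1.76%) and enteric γ-actin (*Actg2*, 0.044% and 0.066%). The cytoplasmic actins *Actb* and *Actg1* made up 20.8% and 7.84% in *Dio3*+/+ hearts and 17.8% and 6.62% in *Dio3*-/- hearts. After adjustment over the 32703 rows, no actin passed the threshold by limma, and *Actg2* did when rows with a CV above 0.5 were left out (adjusted *P* = 0.043, up to 0.239 in the other alternatives). The closest in the fit over all these rows were *Actg2* (log2 fold change 0.68 ± 0.16, adjusted *P* = 0.061) and *Acta1* (0.40 ± 0.11, adjusted *P* = 0.086), and *Actb* was at -0.06 ± 0.12 (adjusted *P* = 0.829 by limma). All 4 muscle actins had higher means and both cytoplasmic actins lower means in *Dio3*-/- hearts. Within the calponin family, *Cnn1* made up 28.9% and 30.8% of the sum with *Cnn2* and *Cnn3*.

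The order of the members by level was much the same in both genotypes. From the highest it was *Acta2*, *Cnn1*, *Mef2a*, *Myocd*, *Mef2d*, *Srf*, *Tagln*, *Mef2c*, *Mkl2* and *Mkl1* in *Dio3*+/+ hearts, and *Srf* and *Tagln* changed places in *Dio3*-/- hearts. In *Dio3*+/+ hearts the ranges of 1 SD of neighbors overlapped at each step from *Mef2a* down to *Mef2c*. The genes were measured in the same hearts, and the summaries do not show their difference within each heart. Whether neighbors differ in level was therefore not tested. In *Dio3*-/- hearts, the overlaps were those between *Mef2a* and *Myocd* and between *Tagln* and *Srf*. The lowest members, *Mkl2* and *Mkl1*, were above 61.8% and 45.2% of all tested genes.

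The listed spread between hearts was compared by genotype without a test. The CV was larger in *Dio3*+/+ than in *Dio3*-/- hearts for all 10 genes, and it was larger for 65.4% of all tested genes. Over the members, the median CV was 0.125 in *Dio3*+/+ and 0.04 in *Dio3*-/- hearts, where the medians of all tested genes were 0.09 and 0.06. *Myocd* had the widest spread in *Dio3*+/+ hearts, with a CV of 0.17, followed by *Mef2c* and *Cnn1* with 0.16. *Acta2* and *Tagln* differed less in spread between the genotypes (0.09 against 0.07 and 0.11 against 0.08). The genes were measured in the same hearts, so their spreads are not separate observations, and which heart was high or low cannot be read from the summaries.

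**Figure D3:**
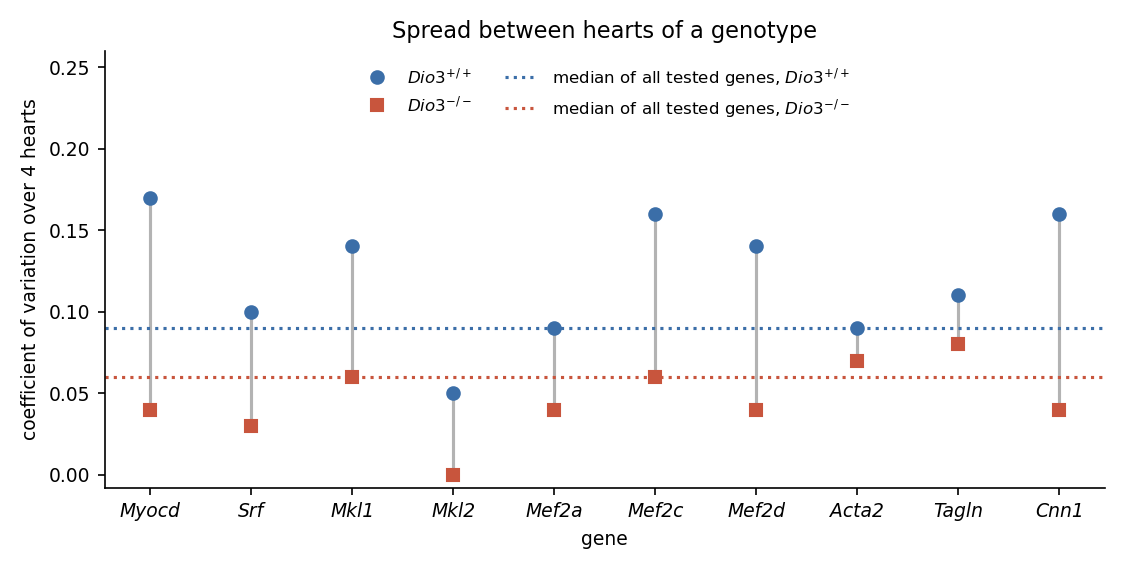
Coefficient of variation over 4 hearts for each of the 10 genes in *Dio3*+/+ and *Dio3*-/- hearts, with the medians over all tested genes (0.09 and 0.06) drawn as lines. The *Dio3*+/+ value is the larger one for all 10 genes.

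RNA of other tissues differed in mean between the genotypes beside these results. All 7 hepatocyte markers had higher means in *Dio3*-/- hearts, with a summed level of 14.86 RPKM in *Dio3*+/+ hearts (median CV 1.12) and 101.87 RPKM in *Dio3*-/- hearts (median CV 1.18). The 4 skeletal muscle markers *Myod1*, *Myog*, *Myf5* and *Pax7* had lower means in *Dio3*-/- hearts and summed to 15.45 and 1.75 RPKM. *Myog* had 9.78 RPKM with a CV of 1.56 in *Dio3*+/+ hearts, where the largest CV that 4 hearts allow is 2. Skeletal muscle also expresses SRF, the MEF2 factors and skeletal α-actin. The 5 red cell markers in the table had lower means in *Dio3*-/- hearts and summed to 17829 and 6303 RPKM. Of these 3 lists, *Hbb-bh1*, an embryonic globin gene, was the 1 gene that passed the test by limma (log2 fold change -1.51, adjusted *P* = 0.047). None of the markers was listed at 0. Their part in the values of the 10 genes was not tested.

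Markers of the heart's own cell types differed less in summed level. Endothelial, epicardial, fibroblast and mural cell lists had median log2 fold changes of 0.13, 0.09, 0.03 and 0.09. Of these 4 lists, 1 gene rose, *Abcc9*, which encodes a subunit of potassium channels (0.65, adjusted *P* = 0.0060 by limma). It is on the mural cell list, and its means were 19.31 and 30.57 RPKM. The cells that made its RNA in these whole hearts were not identified. Of the 6 genes on that list, 4 were above 0 and 2 below. The latter were *Kcnj8* (-0.34, adjusted *P* = 0.201 by limma) and *Notch3* (-0.32, adjusted *P* = 0.478 by limma). The summed levels were 173.76 and 188.54 RPKM for endothelial, 82.25 and 87.19 RPKM for epicardial, 462.64 and 425.79 RPKM for fibroblast and 61.51 and 75.66 RPKM for mural cell markers. The 8 cardiomyocyte genes had a median of 0.29, all above 0, and summed to 3230.73 and 4270.43 RPKM. *Myh6* alone had 459.52 and 959.07 RPKM. Of the 8, 3 rose, *Myh6*, *Tnni3* and *Ryr2* (log2 fold changes of 1.06, 0.75 and 0.59). That is 37.5%, beside 2.29% of all tested genes in either direction. *Tnnt2* and *Nkx2-5* were at 0.08 and 0.11 (adjusted *P* = 0.765 and 0.639 by limma). In whole hearts, fewer cells of a type and less RNA per cell cannot be told apart. The part of these lists in the values of the 10 genes was not tested.

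Other genes of the pathway were described by 8 lists with 73 genes, of which 72 were in the table and 66 could be tested. Of these 66, 4 rose and 1 fell by limma in their highest row, 7.58%, beside the 2.29% of all tested genes. The latter were 280 higher and 56 lower, 83.3% higher, and 71.7% were higher (129 and 51) when both genotypes were centered. After centering, 2 of the 5 list genes (*Myh6* and *Fos*) were still called, and with Welch's test 1 (*Myh6*). The log2 fold change was above 0 for 75.8% of the 66 genes, with a median of 0.10. Over all tested genes, 63.3% were above 0 and the median was 0.04, which applies to each list below. The lists were chosen with results of these data known, and their counts are a description.

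The partners of SRF had log2 fold changes above 0 in all 9 genes, and 2 of them rose. Their median was 0.07, beside 0.04 over all tested genes. *Fhl2*, which encodes a LIM protein of the sarcomere that binds SRF, rose from 51.90 RPKM (CV 0.18) to 76.97 RPKM (CV 0.09), a difference of 0.56 ± 0.12 on the log2 scale (adjusted *P* = 0.048 by limma). *Csrp2*, which encodes a LIM protein of smooth muscle, rose from 136.51 RPKM (CV 0.03) to 158.55 RPKM (CV 0.01), a difference of 0.22 ± 0.04 on the log2 scale (adjusted *P* = 0.033 by limma). Both calls were lost with Welch's test (adjusted *P* = 0.163 and 0.084), when centered (0.073 and 0.075), with raised CVs (0.059 and 0.061) and without the mean-variance trend (0.065 and 0.056), and that of *Fhl2* also without the expression filter (0.081). The ternary complex factors *Elk1*, *Elk3* and *Elk4*, which compete with myocardin for SRF, lay between 0.04 and 0.07, and *Elk1* was below 0 when centered. *Csrp3*, which encodes the muscle LIM protein and had the highest level of the list, had 280.37 and 323.39 RPKM (adjusted *P* = 0.346 by limma).

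Genes of the actin signaling that controls MRTF entry into the nucleus had a median of 0.0043 over 8 tested genes, and none passed by limma. They ranged from -0.20 for *Scai*, which encodes a repressor of the MRTFs (adjusted *P* = 0.477 by limma), to 0.17 for the kinase gene *Rock2* (adjusted *P* = 0.099 by limma). *Tmsb4x*, which encodes a protein that sequesters actin monomers, had the highest level with 806.37 and 776.59 RPKM.

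The list of other smooth muscle genes, not all of them contractile, had a median log2 fold change of 0.23 over 12 tested genes. The log2 fold change was above 0 for 11 of the 12, and 1 rose by limma in its highest row. *Myh11*, the gene for smooth muscle myosin heavy chain, is also on the list but was too low to be tested (0.46 and 0.77 RPKM). Which cells of the heart made the RNA of these genes was not tested. *Itga8*, which encodes the integrin α8 chain, rose from 7.00 RPKM (CV 0.12) to 9.60 RPKM (CV 0.05), a difference of 0.43 ± 0.08 on the log2 scale (adjusted *P* = 0.034 by limma). The call was lost without the expression filter (0.060), when centered (0.059) and with Welch's test (0.142). *Smtn*, which encodes smoothelin, rose on 4 of its 6 rows, with adjusted *P* values of 0.048 to 0.049 by limma, while its highest row had 27.80 and 31.67 RPKM (log2 fold change 0.18 ± 0.04, adjusted *P* = 0.051 by limma). *Myl9*, which encodes the regulatory light chain of smooth muscle myosin, had the highest level with 657.97 and 796.65 RPKM (0.28 ± 0.09, adjusted *P* = 0.126 by limma). *Cald1*, which encodes caldesmon, was the gene below 0, at -0.05 ± 0.13, and *Actg2* had the largest log2 fold change of the list. Without rows with a CV above 0.5, *Smtn* (adjusted *P* = 0.049), *Actg2* (0.043) and *Lmod1* (0.044), which encodes leiomodin 1, also passed by limma. *Lmod1*, at 0.60 and 1.03 RPKM (log2 fold change 0.48 ± 0.12, adjusted *P* = 0.073 by limma), passed without the mean-variance trend too (0.042), and *Smtn* with an average above 5 RPKM (0.044).

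Of the immediate early genes, which SRF and the ternary complex factors induce upon growth signals, 1 of 7 tested genes fell and none rose. *Fos* fell from 4.01 RPKM (CV 0.18) to 2.21 RPKM (CV 0.11), a difference of -0.73 ± 0.12 on the log2 scale (adjusted *P* = 0.018 by limma and 0.192 with Welch's test). *Junb* had 14.45 and 10.06 RPKM (-0.50 ± 0.13, adjusted *P* = 0.083 by limma). The other 5 lay between -0.10 for *Cyr61* and 0.15 for *Mcl1*, and *Ctgf* had the highest level with 44.12 and 45.22 RPKM. The median of the 7 genes was 0.04.

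Cytoskeletal SRF targets had a median of -0.04 over 9 tested genes, and by limma none passed in its highest row. *Tpm1*, which encodes α-tropomyosin, had 1089.29 and 1410.86 RPKM in its highest row (log2 fold change 0.37 ± 0.09, adjusted *P* = 0.058 by limma), and 7 of its 12 rows rose, by 0.29 to 0.40 on the log2 scale. Its highest row passed by limma with an average above 5 RPKM (adjusted *P* = 0.046) and without rows with a CV above 0.5 (0.045), and had 0.0998 when centered and 0.164 with Welch's test. *Cnn2*, which encodes a calponin of many cell types, had the lowest log2 fold change (-0.15 ± 0.06, adjusted *P* = 0.222 by limma), and *Actb* had the highest level. Cardiac SRF targets had log2 fold changes above 0 in all 6 genes, with a median of 0.24. *Myh6*, the gene for α myosin heavy chain and a direct target of the thyroid hormone receptor, rose from 459.52 RPKM (CV 0.13) to 959.07 RPKM (CV 0.08), a difference of 1.06 ± 0.10 on the log2 scale (adjusted *P* = 0.0013 by limma). *Nppb*, which encodes B-type natriuretic peptide, had the lowest value of that list, 0.20 ± 0.18 (adjusted *P* = 0.611 by limma), and *Actc1* had the highest level with 4778.41 and 5638.08 RPKM.

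On the MEF2 side, no gene of either list passed by limma over the 32703 rows. The repressors of MEF2, among them the class IIa histone deacetylases, and kinases that act on these or on MEF2 had a median of 0.03 over 8 tested genes. They ranged from -0.12 for *Mapk7* (adjusted *P* = 0.648 by limma) to 0.17 for *Prkd1* (adjusted *P* = 0.166 by limma), and *Hdac5* had the highest level with 25.86 and 26.12 RPKM. The MEF2 target genes of muscle had log2 fold changes above 0 in all 7 tested genes, with a median of 0.23. *Myom1*, which encodes the M-band protein myomesin 1, had 121.63 RPKM (CV 0.14) and 156.74 RPKM (CV 0.04), a difference of 0.36 ± 0.09 on the log2 scale (adjusted *P* = 0.070 by limma). *Hrc*, which encodes a calcium-binding protein of the sarcoplasmic reticulum, had 36.04 RPKM (CV 0.08) and 45.66 RPKM (CV 0.09), with 0.34 ± 0.08 on the log2 scale and the lowest adjusted *P* value of the list (0.058 by limma). It passed with an average above 5 RPKM (0.046) and without rows with a CV above 0.5 (0.041), and had up to 0.188 in the other alternatives. *Smpx*, which encodes a small muscle protein, had the highest level with 250.56 and 294.41 RPKM (0.23 ± 0.10, adjusted *P* = 0.242 by limma), and the lowest value was 0.08 for the muscle kinase gene *Srpk3*.

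**Figure D4:**
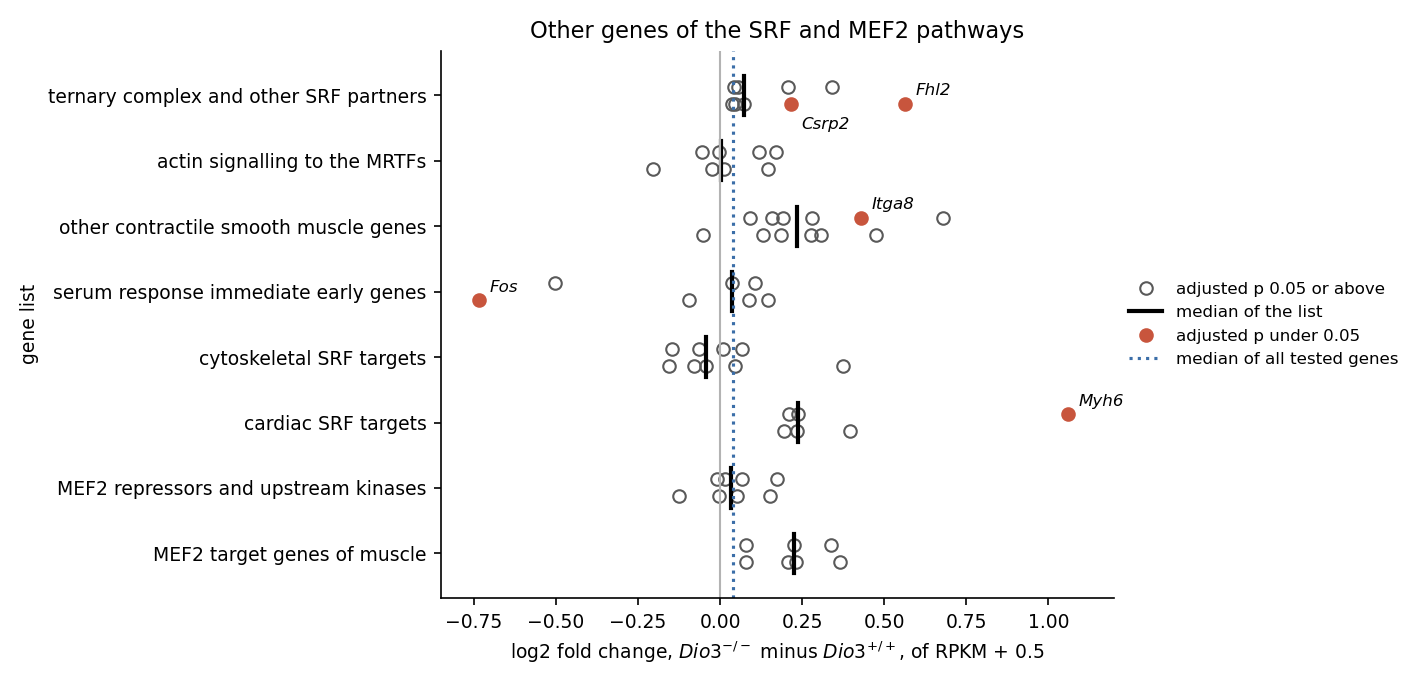
Log2 fold change of RPKM + 0.5 (*Dio3*-/- minus *Dio3*+/+) for the 66 tested genes of 8 pathway lists, with the genes that passed the test by limma and the median of each list marked. The medians of the smooth muscle, cardiac SRF target and MEF2 target lists lie between 0.23 and 0.24, and the others between -0.04 and 0.07.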

How the data were processed

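Total RNA of 8 individual hearts was sequenced. Per the study's methods, reads were aligned with NovoAlign (version 2.08, also in the submitters' processing notes), only uniquely mapping reads were kept, and samples were scaled linearly by their read totals. The genome build is not given in the sources used here. The deposited table holds the authors' mean per genotype, read as RPKM, and the CV, a ratio of SD to mean. The fold change (ratio) and q value that the authors deposited are their own comparison and were not used. The table gives no depth per sample. The study's methods give a range of aligned reads and an average of mapped reads over the samples.

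The plan allowed for values of single hearts, and since the table has none, the test was made from the genotype summaries. For the 32703 rows whose larger genotype mean exceeded 1 RPKM, log2(mean + 0.5) was taken and its SD approximated from the CV, least reliably for a large CV. Variances (6 residual and 3.52 prior degrees of freedom) were moderated in limma 3.58.1 (R 4.3.3) with a mean-variance trend, in two-sided tests. On data simulated for these 32703 rows, 183 of 200 rows changed 2-fold were recovered (91.5%), with 4 false calls. The simulation gave both genotypes the same spread in a row, unlike the members. The largest ratio among the members was 1.34, and recovery of changes of that size was not simulated.

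All 10 genes were named, and of each pathway list the genes past the threshold (adjusted *P* value of 0.05), the highest level and the highest or lowest log2 fold change, with *Dio3* and the actins. *Smtn*, *Lmod1*, *Hrc*, *Junb*, *Tpm1* rows, *Xist*, the *Elk* genes, markers and untested genes were named after their values were seen. Members and lists were chosen with earlier results of these data known.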

Additional observations from a re-analysis of the deposited data

How the results depend on the processing

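Alternatives run over all rows, 10 in number, were pseudocounts of 0.1 and 1, no expression filter, a single row for each gene, an average above 5 RPKM, Welch's test, no mean-variance trend, centering on the median log2 ratio (a shift of 0.04), CVs raised by 0.005, and no rows with a CV above 0.5. By limma, 0 of the 10 genes had an adjusted *P* value under 0.05, and 1 (*Myocd*) did without rows of high CV. The 4 members with an unadjusted *P* value under 0.05 became 2 when centered. The 5 pathway genes became 3 without the filter, 1 with Welch's test, 2 when centered, 3 with raised CVs and 10 without rows of high CV. The 703 rows called over the whole table became 431 without the filter, 319 with 1 row per gene (fewer rows tested), 62 with Welch's test, 394 when centered and 414 with raised CVs, and rose to 811 with an average above 5 RPKM and 1052 without rows of high CV. The cause of the other shifts was not tested. Of 131 alternative values for the members, 124 kept their direction and side of the threshold and 6 changed sign, namely *Mkl2* in 1 other row (-0.14), *Mef2c* in 4 other rows (0.00054, 0.0043, 0.0033 and 0.073) and *Mef2d* when centered (-0.014). Centering also turned *Elk1* (-0.0011), *Cfl1* (-0.027), *Ctgf* (-0.0027), *Tgfb1i1* (-0.028) and *Hdac5* (-0.024). No paired analysis was possible because the columns hold genotype summaries without replicate numbers. For the same reason, leaving out each heart in turn was not run.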

Other observations

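Several genes of the lists were below 1 RPKM in both genotypes. *Myh11*, which encodes the smooth muscle myosin heavy chain, a defining marker of mature smooth muscle, had means of 0.46 RPKM (CV 0.59) in *Dio3*+/+ and 0.77 RPKM (CV 0.57) in *Dio3*-/- hearts, far below *Acta2* and *Cnn1* in the same hearts. Without the expression filter, its adjusted *P* value by limma was 0.550. *Xirp2*, a muscle gene and MEF2 target, had 0.59 RPKM (CV 0.22) and 0.98 RPKM (CV 0.18), a log2 fold change of 0.44 with an adjusted *P* value of 0.118 by limma in that fit. *Mef2b* (0.707), *Egr2* (0.771), *Egr3* (0.605) and *Fosb* (0.818) also had adjusted *P* values above 0.05 by limma there.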
